A study of Mus musculus with 4 samples.

Results

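The genes described here make and run the T cell antigen receptor and mark the main T cell subsets. They were chosen by name and comprise 33 of the 19297 genes measured in the series, and each was represented by 1 probe set that carries its symbol alone. The receptor complex is represented by 4 genes, CD4 helper cells by 2, CD8 cells by 2, kinases and adaptors by 11, costimulatory and adhesion receptors by 9, regulatory and inhibitory genes by 3 and transcription factors by 2.

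The T cell receptor recognises peptide on an MHC molecule but has no signalling tail of its own. The CD3 chains and the zeta chain carry it, and their tails are phosphorylated by the kinase LCK, which is brought to the receptor by CD4 or CD8. ZAP-70 then binds the phosphorylated tails and phosphorylates the scaffold LAT, from which calcium, Ras and protein kinase C signals branch. In the spleen, T cells gather around the central arterioles of the white pulp, beside the B cell follicles.

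The 3 CD3 chain genes that were lower together lie next to each other on chromosome 9, Cd3d between Cd3g and Cd3e in the gene order of a RefSeq table (assembly GRCm38.p6). Their upstream sequences are shown to let the 3 neighbours be compared. Each run is the 250 bases before the annotated start, read 5′ to 3′ on the gene's own strand, from RefSeq's GRCm38.p6 assembly of the C57BL/6J strain (the mice studied were 129Sv). Capitals mark matches on either strand to the ETS motif AGGAAG, the TCF/LEF motif CTTTGA, the motif AGATAA of GATA factors, the RUNX motif TGTGGT or the E protein motif CAGCTG.
Cd3g, chr9:44980432-44980681, minus strand: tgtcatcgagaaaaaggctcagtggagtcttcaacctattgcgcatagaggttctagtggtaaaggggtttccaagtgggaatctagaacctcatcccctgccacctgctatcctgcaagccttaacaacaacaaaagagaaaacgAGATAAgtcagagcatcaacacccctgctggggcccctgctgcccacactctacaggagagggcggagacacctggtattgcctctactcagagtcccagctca
Cd3d, chr9:44981536-44981785, plus strand: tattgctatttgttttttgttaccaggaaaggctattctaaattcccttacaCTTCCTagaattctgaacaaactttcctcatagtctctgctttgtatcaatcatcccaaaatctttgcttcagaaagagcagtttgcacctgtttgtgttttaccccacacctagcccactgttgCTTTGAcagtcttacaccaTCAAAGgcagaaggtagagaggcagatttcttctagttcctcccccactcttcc
Cd3e, chr9:45009612-45009861, minus strand: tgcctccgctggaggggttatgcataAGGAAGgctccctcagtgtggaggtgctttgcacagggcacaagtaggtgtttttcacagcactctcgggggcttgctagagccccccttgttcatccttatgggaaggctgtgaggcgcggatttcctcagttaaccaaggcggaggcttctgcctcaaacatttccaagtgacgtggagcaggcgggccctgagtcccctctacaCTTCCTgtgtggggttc
The marked stretches are 1 AGATAA in Cd3g, 1 AGGAAG and 2 CTTTGA in Cd3d, and 2 AGGAAG in Cd3e, and none of them overlaps another. No motif of the set was found in all 3 windows, and the RUNX and E protein letters were found in none of them. These are short motifs: among 32851 RefSeq windows of this length, 29.5% held AGGAAG, 13.8% CTTTGA, 9.99% AGATAA, 14.0% TGTGGT and 13.0% CAGCTG. Windows were listed for 21 of the 33 genes, 26 windows in all. Of these 21 genes, 9, 5, 4, 5 and 1 held these motifs in the same order. A gene was counted if any of its windows held the motif, while the percentages count single windows. The matches describe letters only.

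Spleens of 4 mice on the 129Sv background were profiled on Affymetrix whole-transcript arrays, with total RNA of 1 mouse on each. The 2 leukemic mice had the genotype RBP-J flox/flox;Ren1dcre/cre and were 107 days old (replicate 1, female) and 93 days old (replicate 2, male). The 2 wild type mice were RBP-J flox/flox;Ren1d+/+ females of 80 and 81 days. All 4 thus carried floxed alleles of RBP-J, which binds DNA and carries Notch signals to target genes. Only the leukemic mice carried cre, which is driven from the renin gene Ren1d. The leukemic spleens weighed 0.7 g and 0.47 g and the wild type spleens 0.12 g and 0.16 g, a ratio of means of 4.18. Each array received material made from 500 ng of RNA, so a value is a level per amount of RNA and not per spleen. Values are log2 expression from RMA, where a difference of 1 is a doubling. Cre at Ren1d, age and spleen weight differ between the groups together with the leukemia, and the only male was leukemic. The parts of these factors cannot be told apart.

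One array stood apart. In wild type replicate 2 the 17 measured exocrine pancreas markers averaged 11.32, against 6.56 and 6.41 in leukemic replicates 1 and 2 and 6.45 in wild type replicate 1. Each was higher in wild type replicate 2 than in replicate 1, and limma called 0 of the 17, with 0 at an unadjusted p under 0.05. Zg16 and Pnliprp1, both made by acinar cells, had the smallest p among them (limma adjusted p = 0.29 and 0.35). Spleen markers were present on all arrays, and the 9 measured averaged 9.53 and 9.65 in leukemic and 10.45 and 10.17 in wild type replicates 1 and 2. The 28 measured genes of a set restricted to liver, retina, brain, muscle, kidney, skin, lung or germ cells, chosen after the data were seen, read the low end of the scale. In leukemic spleen their median was 6.34 and 9 in 10 of their values lay below 7.62, against 6.41 and 7.65 in wild type spleen. Not all were low: Tnnt2 read 8.08 and 9.45 in leukemic replicates 1 and 2, and Umod 9.09 and 7.74. Of the 33 T cell genes, 7 had a leukemic mean below 7.62 and 2 a wild type mean below it. The differences of those 7 (Cd3d, Cd40lg, Sh2d1a, Trat1, Themis, Cd226 and Gata3) may thus understate the fold.

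T cell genes were lower in leukemic spleen with 1 exception. Of the 33, 32 had a lower mean in leukemic than in wild type mice, and the median log2 fold change was -1.26, against -0.03 over all genes. Limma called 13 of the 33 lower and 0 higher at an adjusted p under 0.05, where 1.03% of all genes were called lower and 1.43% higher. At an unadjusted p under 0.05, 31 were lower and 0 higher, against 10.6% of all genes lower. Both leukemic arrays lay below both wild type arrays for 31 of the 33, against 26.2% of all genes. Of the 33, 20 were at least 2-fold lower, and 11 of these 20 were called. Adjusted p of the 13 lay between 0.028 and 0.049, and 10 further genes had values between 0.051 and 0.1, so the number called moves with small changes of the fit. It was 0 without wild type replicate 1, 0 without wild type replicate 2, which holds the pancreas transcripts, 16 without leukemic replicate 1 and 23 without leukemic replicate 2, in fits with 1 residual degree of freedom. With the variance prior of all 4 arrays kept, these counts were 0, 1, 0 and 20 in the order wild type replicate 1, wild type replicate 2, leukemic replicate 1, leukemic replicate 2. With quantile normalization it was 3, with all probe sets in the fit 5, and against a minimum log2 fold change of 0.5 it was 0. The direction did not move in this way: 32 or 33 of the 33 were lower with each mouse left out. For the 31 without overlap that order fixes the sign, so only Ubash3a and Ctla4 could have turned. In RNA of a whole spleen, fewer T cells, less RNA per T cell and a larger share of RNA from other cells cannot be told apart.

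**Figure D1:**
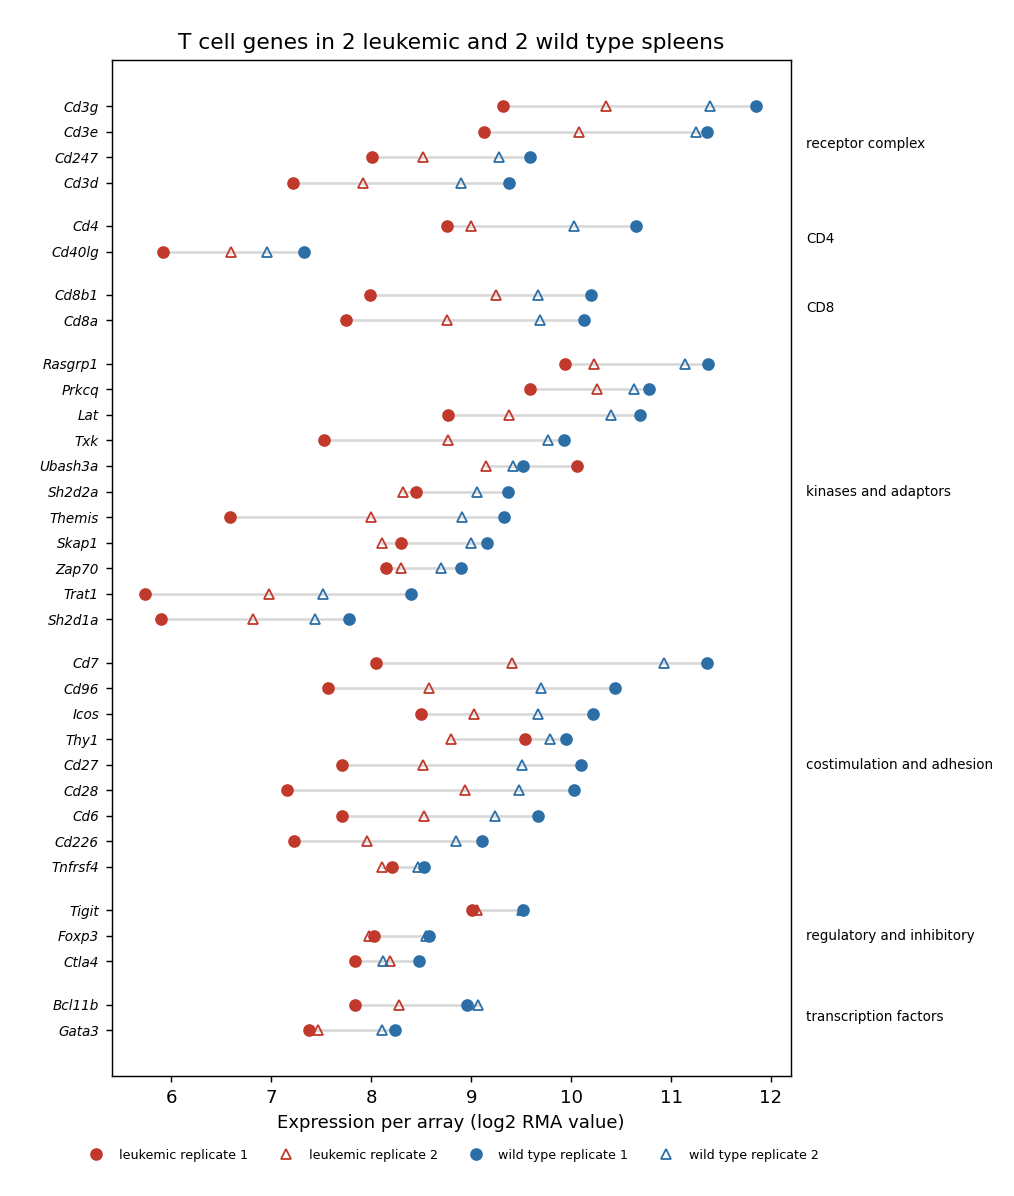
Expression of the 33 T cell genes on each array (x axis, log2 RMA value), grouped by role, with leukemic arrays in red and wild type arrays in blue; circles are replicate 1 and triangles replicate 2. Red points lie left of blue points for all genes but Ubash3a and Ctla4, and leukemic replicate 1 is mostly the leftmost.

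All 4 genes of the receptor complex fell, where 1.03% of all genes were called lower. Cd3e, the chain on which assembly of the complex depends, had values of 9.13 and 10.08 in leukemic replicates 1 and 2 and of 11.36 and 11.25 in wild type replicates 1 and 2. Leukemic replicate 1 was the lower of the leukemic pair, and the groups did not overlap (log2 fold change -1.70, SE 0.29, limma adjusted p = 0.039). Cd3g, which encodes the gamma chain of CD3, read 9.32 and 10.35 in leukemic and 11.85 and 11.39 in wild type spleen, a change of -1.78 (SE 0.33, limma adjusted p = 0.049). Cd3d, its delta chain, read 7.22 and 7.91 in leukemic and 9.38 and 8.90 in wild type spleen (-1.57, SE 0.27, limma adjusted p = 0.038). The 3 neighbouring genes whose upstream sequences are given above were therefore lower by similar amounts, 3.26-fold for Cd3e, 3.44-fold for Cd3g and 2.97-fold for Cd3d. The leukemic mean of Cd3d, 7.57, lies below the low level of 7.62 given above, so its fold may be understated. Cd247 on chromosome 1, which encodes the zeta chain with the most signalling motifs, fell less. It read 8.00 and 8.52 in leukemic and 9.59 and 9.27 in wild type spleen, again without overlap (-1.17, SE 0.21, limma adjusted p = 0.045).

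Of the coreceptors, Cd4 fell and the CD8 genes were lower without passing. Cd4, which binds MHC class II and marks helper and regulatory cells as well as some myeloid cells, read 8.76 and 9.00 in leukemic and 10.65 and 10.03 in wild type spleen. The leukemic mice lay close together and the wild type mice further apart (log2 fold change -1.46, SE 0.22, limma adjusted p = 0.032). Cd8a, the alpha chain of the MHC class I coreceptor, read 7.75 and 8.75 in leukemic and 10.13 and 9.68 in wild type spleen. Cd8b1, the beta chain found on conventional CD8 T cells, read 7.99 and 9.24 in leukemic and 10.20 and 9.67 in wild type spleen. For these adjacent genes of chromosome 6 the groups did not overlap, and leukemic replicate 2 lay nearer to wild type replicate 2 for Cd8b1 than for Cd8a. Their differences were -1.65 (SE 0.33, limma adjusted p = 0.054) and -1.32 (SE 0.39, limma adjusted p = 0.13). The difference between the changes of Cd8a and Cd4 was -0.58 in leukemic replicate 1 and 0.19 in replicate 2, and thus had no common direction. Its mean of -0.19 gave p = 1 in an exact permutation test over the 4 arrays, which cannot go below 0.333. Cd40lg, the ligand by which activated helper cells stimulate B cells, was dim, with 5.91 and 6.60 in leukemic and 7.32 and 6.96 in wild type spleen. Its groups did not overlap, and its change of -0.89 missed the threshold (SE 0.25, limma adjusted p = 0.11).

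**Figure D2:**
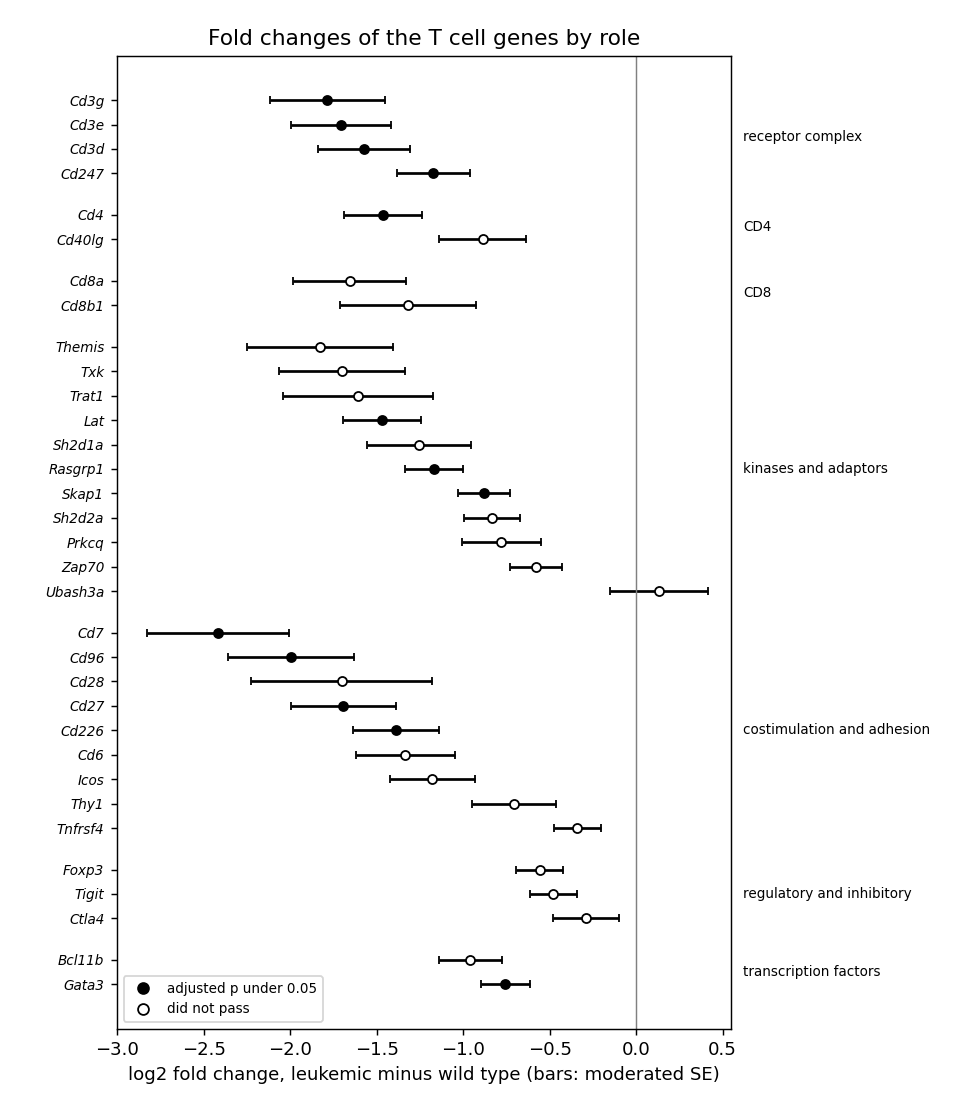
Log2 fold change of each T cell gene, leukemic minus wild type, with its moderated standard error from 2 mice per group; filled points have an adjusted p under 0.05. Changes run from -2.42 for Cd7 to 0.13 for Ubash3a, and the regulatory and inhibitory genes lie nearer 0 than the receptor complex.

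Among the 11 kinases and adaptors, 3 fell and 8 did not pass, where 1.03% of all genes were called lower. Lat, the scaffold that gathers the signalling complex, read 8.77 and 9.38 in leukemic and 10.69 and 10.39 in wild type spleen. Rasgrp1, which activates Ras in T cells, read 9.94 and 10.23 in leukemic and 11.37 and 11.14 in wild type spleen. Skap1, an adaptor for integrin activation, read 8.30 and 8.10 in leukemic and 9.16 and 9.00 in wild type spleen. In none of these did the groups overlap, and the log2 fold changes were -1.47 (SE 0.23) for Lat, -1.17 (SE 0.17) for Rasgrp1 and -0.88 (SE 0.15) for Skap1 (limma adjusted p = 0.033, 0.028 and 0.040). Skap1 was among the few members that were not lowest in leukemic replicate 1.

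Several adaptors differed by as much but with a wide gap between the leukemic mice. Themis, needed for thymocyte selection, read 6.58 and 8.00 in leukemic and 9.33 and 8.91 in wild type spleen. Txk, a Tec family kinase of T and natural killer (NK) cells, read 7.53 and 8.77 in leukemic and 9.93 and 9.76 in wild type spleen. Trat1, a transmembrane adaptor that stabilises the receptor at the surface, read 5.73 and 6.98 in leukemic and 8.40 and 7.52 in wild type spleen. Each was lowest in leukemic replicate 1 and did not overlap, yet the differences of -1.83 (SE 0.42), -1.70 (SE 0.36) and -1.61 (SE 0.43) did not pass (limma adjusted p = 0.071, 0.062 and 0.10). Sh2d1a, the adaptor SAP of T and NK cells, had the same pattern at a dimmer level, with 5.89 and 6.82 in leukemic and 7.78 and 7.44 in wild type spleen (-1.26, SE 0.30, limma adjusted p = 0.076).

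The other kinases and adaptors differed less. Zap70, the kinase that binds the phosphorylated CD3 tails and is also made by B cell precursors in the mouse, read 8.14 and 8.30 in leukemic and 8.90 and 8.70 in wild type spleen. Its groups did not overlap, and its difference of -0.58 (SE 0.15, limma adjusted p = 0.092) was smaller than that of its substrate Lat. Prkcq, the protein kinase C theta of the synapse, differed by -0.78 (SE 0.23, limma adjusted p = 0.12), and Sh2d2a, an adaptor of activated T cells, by -0.83 (SE 0.16, limma adjusted p = 0.053).

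Ubash3a, a negative regulator of receptor signalling in lymphocytes, was the exception to the direction. It read 10.06 and 9.15 in leukemic and 9.52 and 9.42 in wild type spleen. Leukemic replicate 1 was the highest and leukemic replicate 2 the lowest of the 4 arrays, on either side of the wild type pair. The difference of 0.13 (SE 0.28, limma adjusted p = 0.88) became -0.32 without leukemic replicate 1 and 0.59 without leukemic replicate 2.

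The 9 costimulatory and adhesion receptors held the largest changes of the set. Limma called 4 lower and 5 did not pass, where 1.03% of all genes were called lower. Cd7, an immunoglobulin family receptor of T and NK cells, read 8.04 and 9.41 in leukemic and 11.36 and 10.93 in wild type spleen. Its mean was 5.33-fold lower (log2 fold change -2.42, SE 0.41, limma adjusted p = 0.039), with a change of -3.10 in leukemic replicate 1 and -1.73 in replicate 2. Cd96, a nectin receptor of T and NK cells, read 7.56 and 8.58 in leukemic and 10.44 and 9.69 in wild type spleen (-2.00, SE 0.36, limma adjusted p = 0.047). Cd226, which shares a ligand with Cd96, read 7.23 and 7.96 in leukemic and 9.11 and 8.85 in wild type spleen (-1.39, SE 0.25, limma adjusted p = 0.044). Cd27, a costimulatory receptor of the TNF receptor family, read 7.71 and 8.51 in leukemic and 10.10 and 9.51 in wild type spleen (-1.69, SE 0.30, limma adjusted p = 0.044). For each of these 4, the leukemic arrays lay apart from the wild type arrays, with leukemic replicate 1 the lower.

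Cd28, the main costimulatory receptor of naive T cells, showed the widest gap between the leukemic mice among the 33 genes. It read 7.16 and 8.94 in leukemic and 10.03 and 9.48 in wild type spleen. Without overlap between the groups, the change of -1.70 missed the threshold (SE 0.52, limma adjusted p = 0.13), with -2.59 in leukemic replicate 1 and -0.81 in replicate 2. Icos, a relative of Cd28 that supports follicular helper cells, read 8.50 and 9.03 in leukemic and 10.22 and 9.67 in wild type spleen (-1.18, SE 0.25, limma adjusted p = 0.060). Cd6, a scavenger receptor family protein that binds the adhesion molecule ALCAM, differed by -1.33 (SE 0.28, limma adjusted p = 0.062). Thy1, the classical surface marker of mouse T cells, went the other way between the leukemic mice, with 9.53 and 8.80 in leukemic and 9.95 and 9.79 in wild type spleen (-0.70, SE 0.24, limma adjusted p = 0.17). Tnfrsf4, the receptor OX40 of activated and regulatory cells, differed by -0.34 (SE 0.14, limma adjusted p = 0.23).

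None of the 3 regulatory and inhibitory genes passed, and their differences were among the smallest of the set. Foxp3, the transcription factor that specifies regulatory T cells, read 8.03 and 7.98 in leukemic and 8.57 and 8.54 in wild type spleen. Tigit, an inhibitory receptor of regulatory, effector and NK cells, read 9.01 and 9.06 in leukemic and 9.51 in both wild type spleens. Replicates of a group nearly coincided for both genes and the groups did not overlap, with differences of -0.56 (SE 0.13) and -0.48 (SE 0.13; limma adjusted p = 0.078 and 0.11). Ctla4, the inhibitory counterpart of Cd28, read 7.84 and 8.18 in leukemic and 8.48 and 8.12 in wild type spleen, which overlapped (-0.29, SE 0.19, limma adjusted p = 0.48). Ctla4 lies between Cd28 and Icos on chromosome 1, and the 3 neighbours thus had differences of -1.70, -0.29 and -1.18 in the order Cd28, Ctla4, Icos. Foxp3 was thus nearer its wild type level than Cd4: the change of Foxp3 minus that of Cd4 was 1.05 in leukemic replicate 1 and 0.76 in replicate 2. The mean of 0.91 gave p = 0.333 in a two-sided exact permutation test over the 4 arrays, the smallest value that design allows, and wild type replicate 1 minus replicate 2 was -0.59 in the same quantity. This and the comparison of Cd8a with Cd4 were the 2 pairs compared, neither with a p under 0.05 before adjustment. Foxp3 values also lie within 1 log2 unit of 7.62, the level that 9 in 10 tissue-restricted values did not exceed.

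Both transcription factors of T cell identity were lower. Gata3, which directs T lineage commitment and the type 2 helper fate, fell, with 7.37 and 7.47 in leukemic and 8.24 and 8.11 in wild type spleen (log2 fold change -0.76, SE 0.14, limma adjusted p = 0.048). Its leukemic mean of 7.42 lies below 7.62, so the fold may be understated. Bcl11b, which maintains T cell identity, read 7.84 and 8.28 in leukemic and 8.96 and 9.07 in wild type spleen. Its groups did not overlap, and its difference of -0.96 (SE 0.18, limma adjusted p = 0.051) missed the threshold narrowly. It was the only gene of the 33 with a higher value in wild type replicate 2 than in replicate 1.

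The set was lower in leukemic replicate 1 than in replicate 2. Of the 33 genes, 27 were lower in replicate 1, against 44.3% of all genes, and the exceptions were Skap1, Sh2d2a, Ubash3a, Tnfrsf4, Thy1 and Foxp3. The median change from the wild type mean was -1.58 in leukemic replicate 1 and -0.92 in replicate 2. By role, the mean change in leukemic replicates 1 and 2 was -1.96 and -1.16 for the receptor complex, -2.05 and -0.92 for the CD8 genes and -0.50 and -0.38 for the regulatory and inhibitory genes. Leukemic replicate 1 had the heavier spleen, was the older and was female, and these differences were not tested. The wild type mice differed too: 32 of the 33 were lower in wild type replicate 2, which holds the pancreas transcripts, against 44.4% of all genes, by a median of 0.32. The part of the pancreas transcripts in this was not tested.

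**Figure D3:**
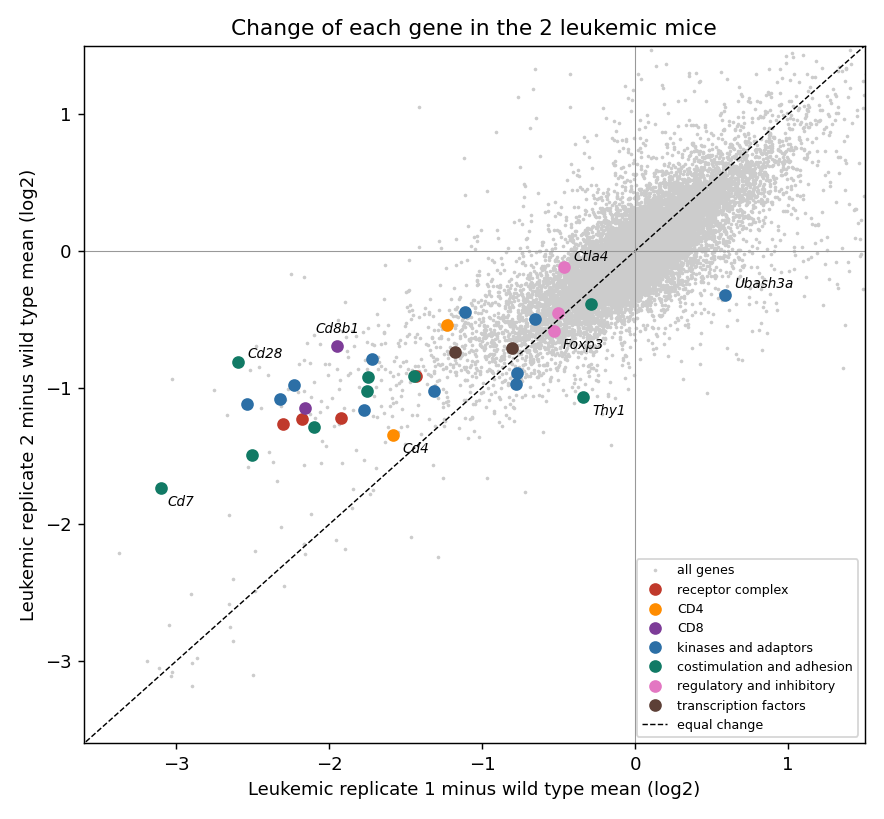
Change of each gene from the wild type mean in leukemic replicate 1 (x axis) and leukemic replicate 2 (y axis), log2, with all 19297 genes in grey and the T cell genes coloured by role; some grey points lie outside the axes, and both axes share the wild type mean. Most coloured points lie above the dashed line of equal change, meaning a lower value in leukemic replicate 1, with median changes of -1.58 and -0.92.

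Of 30 further genes of the T cell receptor pathway, 27 were measured under a single symbol, and the others were not analysed here. Limma called 6 of the 27 lower and 0 higher (11 and 1 at an unadjusted p under 0.05), against the 1.03% and 1.43% of all genes, and the median log2 fold change was -0.31. It called 0 lower without wild type replicate 1, 0 without wild type replicate 2 and 2 without leukemic replicate 1. The largest falls were those of Cd5 and Grap2. Cd5, a receptor that dampens signalling in T cells and B-1 cells, read 8.61 and 9.06 in leukemic and 10.41 and 10.09 in wild type spleen (-1.41, SE 0.20, limma adjusted p = 0.027). Grap2, the adaptor GADS that links LAT to SLP-76, read 9.83 and 10.42 in leukemic and 11.19 and 11.32 in wild type spleen (-1.13, SE 0.21, limma adjusted p = 0.048). Neither gene overlapped between the groups. Many genes of this list, such as those for CD45 and the NFAT factors, also act in B cells and other leukocytes.

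Other T lineage genes were mostly lower as well. Of 14 measured transcription factors of T cell fates limma called 4 lower and 0 higher, against 1.03% and 1.43% of all genes. At an unadjusted p under 0.05, 9 were lower and 2 higher. The calls were led by Eomes (-1.50, SE 0.28) and Tbx21 (-1.35, SE 0.19), the T-box factors of cytotoxic and NK cells (limma adjusted p = 0.047 and 0.028). Both leukemic arrays lay below both wild type arrays for 10 of the 14 and above them for 3, against 26.2% and 23.0% of all genes. The 3 were Lef1 (0.84, SE 0.17), Id3 (0.63, SE 0.21) and Runx1 (0.30, SE 0.15, limma adjusted p = 0.059, 0.15 and 0.35 in this order). Lef1 is also in the precursor B cell list. Of 10 naive and memory genes limma called 3 lower and 0 higher (8 and 1 at an unadjusted p under 0.05), led by Il2rb, a chain of the IL-2 and IL-15 receptors (-1.66, SE 0.28, limma adjusted p = 0.037), and Cd5. The 1 gene on the higher side was Il7r, the IL-7 receptor chain, which is also in the precursor B cell list (0.83, SE 0.30, limma adjusted p = 0.18). Of 10 further regulatory T cell genes limma called 1 lower and 0 higher, while 7 were lower and 0 higher at an unadjusted p under 0.05. Both leukemic arrays lay below both wild type arrays for 8 of the 10, against 26.2% of all genes. The called gene was Capg, an actin-capping protein that myeloid cells also make (-0.96, SE 0.18, limma adjusted p = 0.047). None of 11 activation and exhaustion genes was called by limma. At an unadjusted p under 0.05, 6 were lower and 0 higher, against 10.6% of all genes lower. Both group means of Cd160, Ifng, Il21, Il2 and Lag3 lay below the low level of 7.62 given above, so their folds may be understated. The 2 of smallest p in that list, Cd160 and Havcr2, differed by -0.93 (SE 0.21) and -0.99 (SE 0.29; limma adjusted p = 0.066 and 0.12).

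Il2ra, the IL-2 receptor alpha chain CD25, carried by regulatory and activated T cells and by some B cell precursors, is named because of its values. It read 7.76 and 10.64 in leukemic and 8.91 and 8.34 in wild type spleen. Leukemic replicate 2 stood above and leukemic replicate 1 below both wild type arrays, and the difference of 0.57 (SE 0.81, limma adjusted p = 0.80) turned to -0.87 without leukemic replicate 2 and was 2.02 without leukemic replicate 1. Foxp3 showed no such gap between the leukemic mice.

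Some markers of other cell types were lower beside the T cell genes. Of 12 measured NK cell markers limma called 4 lower and 0 higher, against 1.03% and 1.43% of all genes. At an unadjusted p under 0.05, 8 were lower and 0 higher, and 9 had a lower mean. Both leukemic arrays lay below both wild type arrays for 9 and above them for 2, against 26.2% and 23.0% of all genes. Those 2 were Gzmb (0.28, SE 0.16) and Klrb1c (0.29, SE 0.16, limma adjusted p = 0.41 and 0.38). Both were dim, with leukemic and wild type means of 7.58 and 7.30 for Gzmb and of 5.28 and 4.99 for Klrb1c. These lie below the low level of 7.62 given above, as do both group means of Klra8, Klre1 and Klrb1b. Eomes, 1 of the 4 called, is also counted among the transcription factors above. The mean level of the 12 was 6.37 and 6.73 in leukemic and 7.68 and 7.31 in wild type replicates 1 and 2. Ncr1, the NK receptor NKp46, read 6.09 and 6.82 in leukemic and 8.86 and 8.64 in wild type spleen, without overlap (-2.29, SE 0.24, limma adjusted p = 0.012). Klrd1, the receptor CD94, differed by -2.05 (SE 0.31, limma adjusted p = 0.032). NK cells also make Cd7, Cd96, Cd226, Txk, Sh2d1a and Tigit, while the CD3 epsilon, gamma and delta chains at the surface mark T cells, and the part of NK cells in the result was not tested. Of 9 measured mature B cell markers 2 were called lower, Cr2 and Cd22 (-1.86, SE 0.24, and -0.84, SE 0.14; limma adjusted p = 0.021 and 0.035), and 6 were lower and 0 higher at an unadjusted p under 0.05. Their mean level was 11.12 and 11.39 in leukemic and 12.11 and 11.88 in wild type spleen. Ccl19, a stromal chemokine that draws T cells into the white pulp, was the 1 of 9 measured spleen markers called lower (-1.19, SE 0.22, limma adjusted p = 0.048). At an unadjusted p under 0.05, 7 of these 9 spleen markers were lower and 0 higher, and the median log2 fold change of the 9 was -0.76. Both leukemic arrays lay below both wild type arrays for 8 of the 9, against 26.2% of all genes. The part of the spleen markers in the result was not tested.

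Precursor B cell markers differed in the other direction. Of 14 measured, limma called 9 higher and 0 lower, against 1.43% and 1.03% of all genes. At an unadjusted p under 0.05, 12 were higher and 0 lower. Their mean level was 10.71 and 10.89 in leukemic and 8.68 and 8.56 in wild type replicates 1 and 2. Igll1, a surrogate light chain of the precursor B cell receptor, read 13.02 and 12.85 in leukemic and 7.44 and 7.48 in wild type spleen (5.47, SE 0.14, limma adjusted p = 5.8e-05). Enpep, the B precursor antigen BP-1, rose by 4.77 (SE 0.23, limma adjusted p = 0.00067). The leukemic mice differed less in this list than in the T cell genes, with mean changes of 2.09 and 2.27 against -1.48 and -0.91. The part of precursor B cell RNA in the lower T cell values was not tested.

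**Figure D4:**
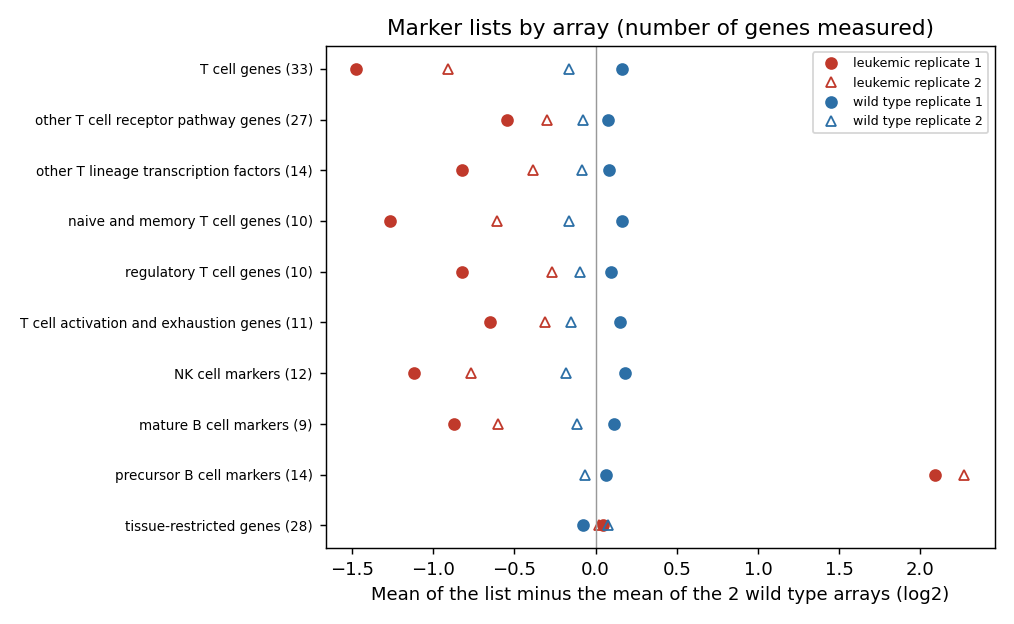
Mean of each marker list on each array minus the mean of the 2 wild type arrays (x axis, log2), with the number of genes measured in brackets; leukemic arrays are red, wild type arrays blue, circles replicate 1 and triangles replicate 2. The T cell genes stand at -1.48 and -0.91 in leukemic replicates 1 and 2, the NK cell markers at -1.12 and -0.77, the precursor B cell markers at 2.09 and 2.27 and the tissue-restricted genes at 0.05 and 0.02.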

How the data were processed

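The deposited table holds the authors' log2 values for each probe set on each array. The submitters' processing notes name R 2.15.0, RMA and limma 3.12.1, without settings. Array medians were 7.96 in both leukemic and 8.03 and 8.02 in wild type spleens. With 4 arrays, their number limits precision. Per the series' design text replicates are individual mice.

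Of 23309 probe sets, 20729 carried 1 symbol in the platform table. Genes with several (804 of 19297) were represented by the set of highest mean over the 4 arrays. The groups were set against each other in limma (lmFit and eBayes, no covariate; version 3.58.1, R 4.3.3) on all probe sets with 1 symbol, with Benjamini-Hochberg adjustment over 19297 genes and an adjusted p under 0.05 as the threshold. The fit had 2 residual and 4.83 prior degrees of freedom, and was tested on simulated data. Standard errors (SE) are moderated.

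Members and lists were chosen with earlier results of these data known. All 33 genes could be named; from other lists, up to 2 called genes with the largest fall and up to 2 with the largest rise, or the 2 of smallest p. Alternatives were centring, quantile normalization, a filter on dim genes, an intensity trend, a minimum fold change, other probe sets, the replicate number as a block and each mouse left out. Leaving mice out with the variance prior of all 4 arrays was added after the data were seen. Motif searches and exact permutation tests used Python 3.11.15 and scipy 1.17.1.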

Additional observations from a re-analysis of the deposited data

How the results depend on the processing

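The median log2 fold change of the 33 T cell genes lay between -1.58 and -0.92 under all alternatives, and 0 of the 33 were called higher under any of them. The number called lower (13) became 3 with quantile normalization, 0 against a minimum log2 fold change of 0.5 and 5 with all probe sets in the fit. For the 27 other receptor pathway genes (6) it became 3, 0 and 3, and for all genes called lower (199) 89 with quantile normalization and 7 against the minimum fold change; for those called higher (276) these were 157 and 48. Centring, the dim gene filter, the intensity trend and the other probe set gave 11, 12, 15 and 14 T cell genes. The other probe set could not test these 33 genes, as each has 1 probe set. Their differences and SE stayed the same, and only the adjustment over all genes moved. Centring on the median gave 149 lower and 387 higher calls over all genes (72.2% higher, against 58.1%). With each mouse left out, T cell genes called lower ranged from 0 to 23, other pathway genes from 0 to 8, all genes lower from 0 to 593 and higher from 0 to 450, where the estimated prior degrees of freedom were infinite after leaving out a leukemic mouse and 2.79 after leaving out a wild type one. With the prior of all 4 arrays, an alternative added after the data were seen, these ranges were 0 to 20, 0 to 7, 8 to 310 and 37 to 270; without leukemic replicate 1, wild type replicate 1 and wild type replicate 2 the counts over all genes were 8, 43 and 19 lower and 87, 69 and 37 higher. The replicate number as a block called 27 T cell genes and 11 other pathway genes lower. Over all genes it called 908 lower and 785 higher, with 1 residual degree of freedom. Same-numbered mice did not deviate together over 19297 genes (r = -0.09). With 2 mice per group, this check does not show whether they share more than a number. The direction turned for Ubash3a without leukemic replicate 1 (-0.32, and 0.59 without leukemic replicate 2) and for Il2ra without leukemic replicate 2 (-0.87, and 2.02 without leukemic replicate 1). No detection calls were analysed, so how far dim genes stand above background is not known; the cause of the other moves was not tested.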

Other observations

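T cell receptor variable segments were read by 14 probe sets, 10 of which carry several symbols and so stand in no comparison above. All 14 had a lower mean in leukemic than in wild type spleen, with a median log2 fold change of -1.09 in a fit over all 23309 probe sets. Both leukemic arrays lay below both wild type arrays for 11 of them, against 26.2% of the 19297 genes. Leukemic replicate 1 was the lowest array for 11, and the share of all probe sets with that order was not computed. In that fit 2 of the 14 were called lower, against 0.592% of all probe sets. The list was assembled after the data were seen, and segments of 1 family share sequence, so the probe sets are not independent. Trgv1, a gamma chain segment with a symbol of its own, read 6.03 and 7.19 in leukemic and 9.58 and 9.23 in wild type spleen. Its change of -2.79 on the log2 scale (SE 0.36, limma adjusted p = 0.020 over 19297 genes) was larger than that of any of the 33 T cell genes. It was not called after quantile normalization (limma adjusted p = 0.055), against a minimum log2 fold change (0.067), or without wild type replicate 1 (0.15) or 2 (0.16), and adjusted p lay between 3.3e-26 and 0.16 over its alternatives. The probe sets with several symbols had changes between -1.79 and -0.46.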
